A study of Mus musculus with 12 samples.

Results

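Rag1, Rag2 and Dntt are the lymphoid genes that cut and extend antigen receptor gene segments. Their RNA was followed in a mouse B lineage cell line in which C/EBPα, a transcription factor of myeloid cells, could be switched on. All probe sets that the array's annotation assigns to these 3 symbols alone were taken. There was 1 for Rag1, 1 for Rag2 and 3 for Dntt, which makes 3 of the 18193 genes named on the array and 5 of its 45037 probe sets that are not controls. The 12 arrays formed 6 groups of 2. HAFTL, made from mouse fetal liver by transformation with Ha-ras, received beta-estradiol. C10, which carries the inducible C/EBPα, received ethanol as the vehicle or beta-estradiol for 3, 12, 24 or 48 h. No time of treatment is labelled for HAFTL or for vehicle C10. Outside these labels, C10 is known as a derivative of HAFTL in which C/EBPα is joined to the hormone-binding part of an oestrogen receptor, so that estradiol turns the factor on. A single C10 line was used, and HAFTL received estradiol where vehicle C10 received ethanol, so line and agent cannot be told apart between those groups. Whether the 2 arrays of a group are separate cultures is not stated, and p-values therefore reflect the spread between these samples alone, which may be technical. The number of arrays limits the precision.

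Rag1 and Rag2 together form the recombinase that binds the recombination signals beside V, D and J segments and cuts the DNA there. Rag1 holds the catalytic centre and Rag2 is its essential partner, with a domain that reads a histone mark of active promoters. Dntt encodes terminal deoxynucleotidyl transferase, a polymerase that adds nucleotides without a template at the cut ends before the end-joining machinery seals them. In B cell development the recombinase works first at the heavy chain locus in pro-B cells and again at the light chain loci in pre-B cells. Dntt is known as a gene of early, adult-type progenitors and is low or absent in fetal lymphopoiesis. Macrophages express none of the 3 genes.

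The 250 bases before each start are shown because Rag1 and Rag2 RNA moved together, while Dntt set HAFTL apart and fell only after 3 h. They are RefSeq sequences of build GRCm38.p6, 5′ to 3′ on the strand of each gene, and capitals mark E-boxes (CANNTG, bound by proteins such as Tcf3), Ets cores (GGAA or its reverse complement TTCC) and a CCAAT box (CCAAT or ATTGG). They lie at chr2:101649533-101649782 on the minus strand for Rag1, chr2:101624462-101624711 on the plus strand for Rag2 and chr19:41029025-41029274 on the plus strand for Dntt. Rag1 and Rag2 are convergent genes, so their promoters are at opposite outer ends of the pair.
Rag1: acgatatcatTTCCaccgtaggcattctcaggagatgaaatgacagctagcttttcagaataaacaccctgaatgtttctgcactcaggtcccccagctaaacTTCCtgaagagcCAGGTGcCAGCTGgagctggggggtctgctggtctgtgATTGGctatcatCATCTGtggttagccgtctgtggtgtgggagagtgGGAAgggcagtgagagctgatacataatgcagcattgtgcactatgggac
Rag2: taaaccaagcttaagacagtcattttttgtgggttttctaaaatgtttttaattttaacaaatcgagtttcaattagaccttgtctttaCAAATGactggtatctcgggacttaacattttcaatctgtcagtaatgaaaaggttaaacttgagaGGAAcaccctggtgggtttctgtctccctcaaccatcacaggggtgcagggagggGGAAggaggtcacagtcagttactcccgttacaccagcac
Dntt: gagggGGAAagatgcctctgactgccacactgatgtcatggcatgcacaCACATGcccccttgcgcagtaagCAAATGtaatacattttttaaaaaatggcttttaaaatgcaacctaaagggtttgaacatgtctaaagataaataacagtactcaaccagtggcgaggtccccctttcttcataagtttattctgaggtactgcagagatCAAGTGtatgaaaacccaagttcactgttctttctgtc

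The promoter stretches differed in what they held. Rag1 had 3 E-boxes, 3 Ets cores and 1 CCAAT box. Its E-boxes were CAGGTG at −135, CAGCTG at −128 and CATCTG at −85, counted from the start to the first base of the match. The Ets core at −50 lies inside the only match to the Ikaros core TGGGAA, which begins at −52. Rag2 had 1 E-box, CAAATG at −161, and Ets cores at −95 and −40. Dntt had E-boxes CACATG at −201, CAAATG at −178 and CAAGTG at −38, and 1 Ets core at −245. None of the 3 held the letters TATAAA or the C/EBP letters TTGCNNAA, searched on both strands. These motifs are common: over 32851 RefSeq promoter stretches of the same length, 66.2% held an E-box, 93.4% an Ets core, 33.8% a CCAAT box, 21.6% the Ikaros core, 12.4% TATAAA and 9.56% TTGCNNAA. A match is a run of letters and not a binding site, and C/EBPα binding was not measured here. GC content was 50.8% for Rag1, 41.2% for Rag2 and 41.6% for Dntt, beside a median of 52.4% over the same promoters.

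**Figure D1:**
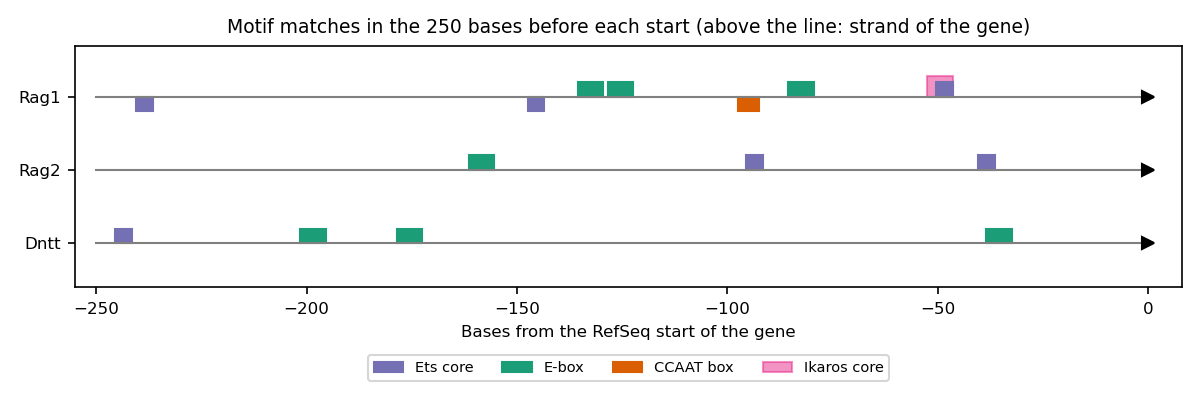
Motif matches in the 250 bases before the RefSeq start of Rag1, Rag2 and Dntt, by distance from the start in bases; boxes above a line are on the strand of the gene and boxes below it on the other strand. The 3 E-boxes of Rag1 lie between −135 and −80, and those of Dntt are spread from −201 to −33.

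Signals are given after quantile normalisation on the linear scale, with values under 16 set to 16, which is called the floor. A signal of 74.6, the median of all values, is called the filter level: below it a probe set is treated as dim. A probe set was tested if it exceeded that level in at least 2 arrays, which 26524 did, all 5 of the members among them. The Dntt probe set 1420166_at passed through HAFTL alone. Changes are log2 differences with their standard error from a limma fit across all probe sets, adjusted by the Benjamini-Hochberg method and called at an adjusted p below 0.05. Where both arrays of the dimmer group lay under the filter level, only a lower bound on the change is given, namely the brighter group's mean divided by the filter level.

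Rag1 RNA was abundant in HAFTL and in vehicle C10, and by 3 h of estradiol its signal lay under the filter level. In HAFTL the Rag1 signal was 6035 and 6004. In vehicle C10 it was 4927 and 4904. After 3 h of estradiol it was 30.8 and 26.9, after 12 h and 24 h both arrays were at the floor of 16, and at 48 h the arrays gave 38.4 and 16. All 8 arrays of estradiol-treated C10 lay under the filter level and all 4 others lay far above it, with no overlap. At 3 h Rag1 was at least 65.8-fold lower than in vehicle C10 (fitted log2 change −7.42 ± 0.34, adjusted p = 7.52e-06), which leaves at most 1.52% of the vehicle signal. The bound is the same at 12, 24 and 48 h, with fitted changes of −8.26, −8.26 and −7.63 and adjusted p of 2.55e-06, 1.7e-06 and 1.21e-06.

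Rag2 followed the same course. Its signal was 2393 and 1984 in HAFTL and 1330.0 and 1252 in vehicle C10. At 3, 12 and 48 h of estradiol both arrays were at the floor, and at 24 h they gave 24.0 and 16. As for Rag1, the 8 arrays of estradiol-treated C10 were dim and the 4 others bright. Rag2 was at least 17.3-fold lower than in vehicle C10 at each time, with a fitted change at 3 h of −6.33 ± 0.18 (adjusted p = 2.11e-06), so at most 5.78% of the vehicle signal was left at 3 h. The lower bound of Rag2 is smaller than that of Rag1 because its probe set was dimmer to begin with, and no order between the falls can be drawn. Arrays were taken at 3 h at the earliest, so the time at which either RNA was lost lies at or before that point.

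**Figure D2:**
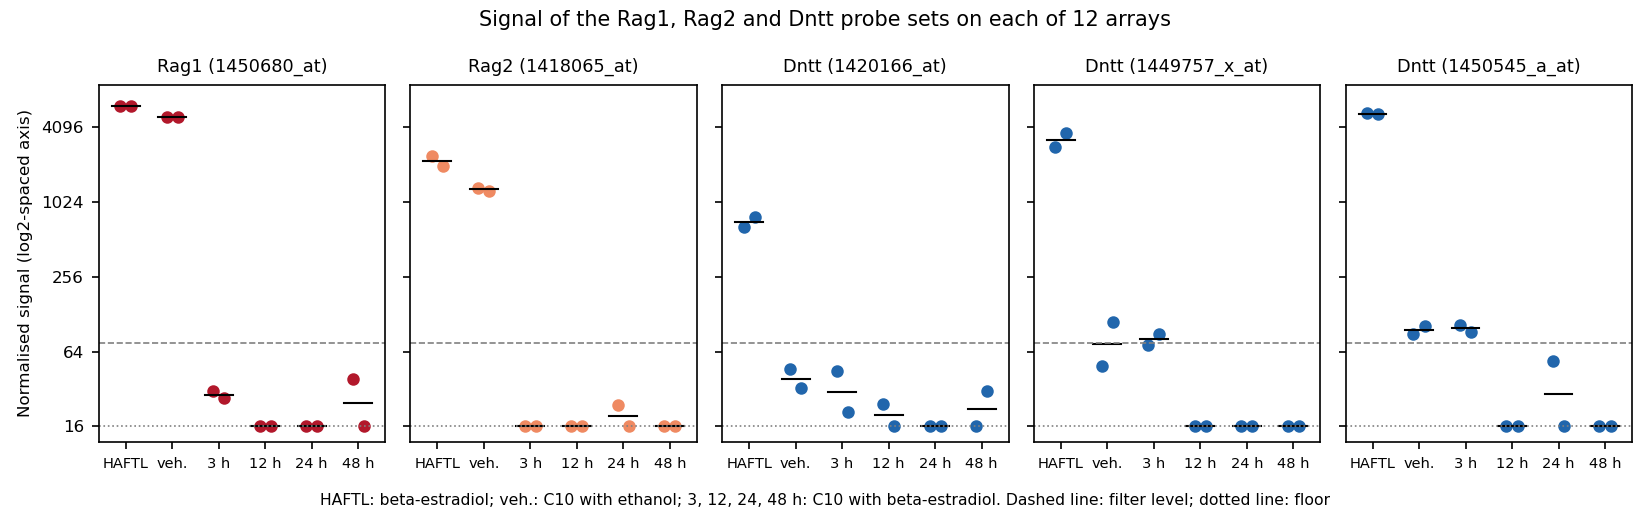
Normalised signal (log2-spaced axis) of the 5 probe sets on each of the 12 arrays: HAFTL with estradiol, vehicle C10 (veh.) and C10 after 3, 12, 24 and 48 h of estradiol. Points are arrays, short lines are geometric means of 2 arrays, the dashed line is the filter level of 74.6 and the dotted line the floor of 16; Rag1 and Rag2 drop under the filter level at 3 h, while Dntt is high in HAFTL only.

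Loss of a bright signal to below the filter level was uncommon on these arrays. Of 21209 probe sets above that level in both vehicle C10 arrays, 801 (3.78%) lay under it in both 3 h arrays. Among the 5750 probe sets whose mean signal in vehicle C10 was at or above that of Rag2, 4 (0.0696%) did so, and Rag1 and Rag2 are among these 4. At 48 h the number was 31 of 5750 (0.539%). This counts probe sets by their own brightness, which depends on the probes as well as on the RNA. The brightness cut is taken from Rag2 itself, so the count is a description and no test of the members.

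Dntt had another pattern, with its main difference between HAFTL and C10 and not between vehicle and estradiol. Its brightest probe set, 1450545_a_at, gave 5292 and 5208 in HAFTL and 88.8 and 102 in vehicle C10. At 3 h it gave 105 and 92.0, at 12 h and 48 h both arrays were at the floor, and at 24 h the arrays gave 54.0 and 16. Vehicle and 3 h arrays overlapped, both just above the filter level, and all arrays from 12 h on lay under it. The second probe set, 1449757_x_at, gave 2853 and 3642 in HAFTL, 49.3 and 110 in vehicle C10, and 72.0 and 89.2 at 3 h, with all later arrays at the floor. Its name marks it as one whose probes may also detect related transcripts. The third, 1420166_at, gave 647 and 772 in HAFTL and lay under the filter level in all 10 C10 arrays, from 46.6 and 32.4 in vehicle C10 to the floor in both arrays at 24 h. All 3 probe sets therefore had the same order, with HAFTL high and every C10 array near or under the level at which signals count as dim.

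HAFTL exceeded vehicle C10 by 5.78 ± 0.46 on the log2 scale for 1450545_a_at, a 55.1-fold difference by the fit (adjusted p = 0.000598). For 1449757_x_at the difference was 5.45 ± 0.33 (adjusted p = 0.000163), and it is uncertain because 1 vehicle array lay under the filter level. 1420166_at was at least 9.47-fold higher in HAFTL, given as a description with no test, since this probe set was tested only because HAFTL is high. Of the 20081 probe sets above the filter level in all 4 arrays of the 2 groups, 1450545_a_at had the largest rise in HAFTL, and the next was 2.61. Rag2 was also higher in HAFTL, by 0.76 ± 0.18 (adjusted p = 0.0423). That call was lost in 8 of the alternatives for its comparison and in 10 of the 12 fits that left out 1 array, where the change ran from 0.62 to 0.89. Rag1 was 0.29 ± 0.34 higher in HAFTL and did not pass the test (adjusted p = 0.657). Leaving out 1420166_at, 3 of 4 member probe sets were called higher in HAFTL, and 2 of these read the same gene, Dntt. Of all probe sets tested, 4.42% were higher and 4.98% lower. The 1172 higher calls behind that share were 334 to 441 without any 1 of the 4 arrays compared.

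**Figure D3:**
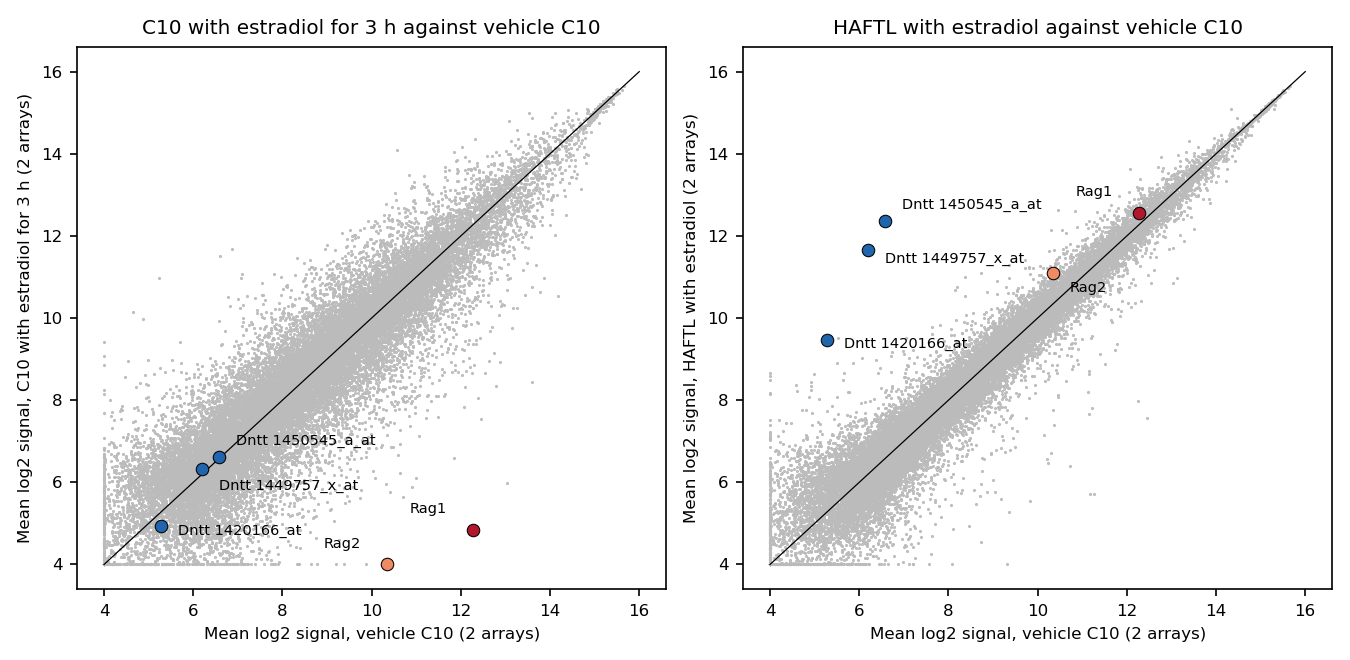
Mean log2 signal of 2 arrays for each of the 26524 probe sets tested (grey), C10 after 3 h of estradiol (left) and HAFTL (right) against vehicle C10; the line marks equal signal and log2 4 is the floor. Rag1 and Rag2 lie near the bottom on the left and close to the line on the right, and the 3 Dntt probe sets lie close to the line on the left and far above it on the right.

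During the time course the small Dntt signal of vehicle C10 was still present at 3 h and was lost by 12 h. The change at 3 h was 0.04 ± 0.46 for 1450545_a_at (adjusted p = 0.954) and 0.12 ± 0.33 for 1449757_x_at (adjusted p = 0.806). The sign of both turned under other settings, and without the second vehicle array 1449757_x_at was called higher (0.70, adjusted p = 0.029) while without the first it was −0.46, so neither direction is given here. By 12 h, 1450545_a_at was at least 1.28-fold lower than in vehicle C10 (fitted −2.57 ± 0.46, adjusted p = 0.00295) and 1449757_x_at was lower by a fitted −2.20 ± 0.33 (adjusted p = 0.00122), for which no bound exists because the vehicle mean was itself under the filter level. Between 3 h and 12 h the same probe sets fell by at least 1.32-fold (adjusted p = 0.00614) and at least 1.07-fold (adjusted p = 0.00245). Both sets of values stand on signals just above the dim level, so the size of the fall cannot be measured here. The 24 h call of 1450545_a_at (fitted −1.70 ± 0.46, adjusted p = 0.0167) was lost without either vehicle array (−1.80 and −1.60). At 24 h 1420166_at was also called lower (adjusted p = 0.0401) with all its C10 arrays under the filter level, and no fold is given for it.

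1420166_at is left out of the counts, since all its C10 arrays were dim. The counts are of probe sets and not of genes: 2 of the 4 left read Dntt and correlated at 0.983. Of the other 4 member probe sets, 2 were called lower at 3 h, those of Rag1 and Rag2, where 20.3% of all probe sets tested were lower and 20.6% higher. At 12 h all 4 were lower, beside 21.7% lower and 22.1% higher of all. At 24 h all 4 were lower, beside 26.4% and 23.7%. At 48 h all 4 were lower, beside 30.0% and 25.5%. No member was called higher at any of the 4 times in this fit. From 3 h to 12 h, 2 of 4 were lower, both of Dntt (11.2% of all). The 2962 lower calls behind that share were 1633 to 1827 without any 1 of the 3 h or 12 h arrays. From 12 h to 24 h and from 24 h to 48 h limma called none of the 5 member probe sets in either direction, and 0 had an unadjusted p below 0.05, where 34.6% and 18.4% of all were called. All 5 lay under the filter level in every array at 12, 24 and 48 h, so the lack of calls cannot show that they were stable. For the last step the 2943 lower calls over all probe sets were 1362 and 1658 without the first and the second 24 h array, and the 1925 higher calls were 830 to 1052 without any 1 of the 24 h or 48 h arrays. The comparisons with vehicle C10 share its 2 arrays, and their counts are not independent. Set against HAFTL, which received estradiol too, Rag1 was at least 80.6-fold and Rag2 at least 29.2-fold lower at every time in C10 than in HAFTL, and Dntt 1450545_a_at was at least 70.3-fold lower from 12 h on. At 3 h, where that probe set was still above the filter level, its log2 difference from HAFTL was −5.74 (adjusted p = 6.08e-05).

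The RNAs come from whole cultures, in which fewer cells of a type and less RNA per cell cannot be told apart. All 9 B lineage markers analysed were above the filter level in both HAFTL and vehicle C10, with summed signals of 149553 to 151461 and 135563 to 135826. All 9 were also above it in C10 at 12, 24 and 48 h of estradiol, so passing that level does not by itself bear out a B lineage label. The summed signals, given below for 3 h and 48 h, were lower after estradiol. Of 11 T lineage markers, 8 were under the filter level in both vehicle C10 arrays, Cd3d, Cd3e, Cd3g and Cd4 among them, and Cd2 (3499), Zap70 (196) and Cd8a (94.1) were above it. That list summed to 3870 to 4135 in vehicle C10, most of it Cd2, and to 990 to 1355 at 3 h. Summed B lineage signal was 63996 to 65685 at 3 h and 32001 to 34351 at 48 h, and that of 10 macrophage markers went from 2562 to 2694 in vehicle C10 to 164246 to 165048 at 48 h. At 3 h, when Rag1 and Rag2 were already under the filter level, the macrophage sum was 3351 to 3449. The 8 granulocyte markers were all dim in vehicle C10 and summed to 263 to 292, and at 24 h the sum was 13850 to 15485, nearly all from S100a8 (6386) and Camp (7981), with no other marker above the filter level in both arrays. Quality measures set some arrays apart. The ratio of 5′ to 3′ Actb signal was 0.582 to 0.638 in vehicle C10 and 0.746 to 0.848 in estradiol-treated C10, and the signal of the 18S ribosomal RNA controls was higher in the second 3 h array, 5962 against 235 to 1025 in the others. Their part in the results was not tested. With any 1 array left out, the 3 h change ran from −7.51 to −7.32 for Rag1 and from −6.38 to −6.29 for Rag2. Such fits cannot bear on the Actb ratio, since it set both vehicle arrays apart. The probe set of Cebpa, the gene behind the inducible factor, was at the floor in 10 of 12 arrays and reached 34.6, so it gives no check of the transgene.

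The genes that join the cut ends were affected more mildly than the recombinase. Of 10 end-joining genes tested, 5, 6, 5 and 6 were lower at the successive times and none was higher, with median log2 changes of −0.58, −0.72, −0.71 and −0.88 beside 0.03, 0.01, −0.04 and −0.06 over all probe sets tested. Counts of this and the later lists stand beside 20.3%, 21.7%, 26.4% and 30.0% lower of all probe sets at the 4 times. The shares higher were 20.6%, 22.1%, 23.7% and 25.5%. Xrcc6, which encodes the Ku70 subunit of the complex that grips broken ends, fell by 1.27 ± 0.11 at 3 h and 3.16 ± 0.11 at 48 h. Its partner Xrcc5, Ku80, was 0.10 ± 0.15 at 3 h, which did not pass the test, and had fallen by 1.12 at 12 h and by 2.52 at 48 h. In HAFTL Xrcc6 was 0.46 ± 0.11 higher than in vehicle C10, a call lost with the deposited values (0.41), median centring (0.28) and poly-A scaling. Prkdc, the kinase that Ku recruits, fell by 0.56, 0.75, 0.78 and 0.91 at the 4 times. Lig4, the ligase of the last step, did not pass the test at any time and ran from −0.87 to −0.12. Aplf, a scaffold of the pathway, fell by 0.90 at 3 h and was at least 3.75-fold lower at 48 h, and at 12 h its −0.22 did not pass. Dclre1c, which encodes the hairpin-opening nuclease Artemis, was not analysed here.

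The size and the calls of these falls depended on how arrays were scaled. Scaling to the poly-A spike-in controls raised the median of all probe sets tested by 0.68, 0.73, 0.30 and 0.56 at the 4 times relative to the quantile-normalised values. Under that scaling the numbers of end-joining genes called lower were 0, 0, 1 and 3, and the median at 3 h turned to 0.03. Prkdc at 3 h turned to 0.07. Relative to the shift of all genes, the list medians under that scaling were −0.66, −0.75, −0.67 and −0.85. Rag1 and Rag2 were called lower at all 4 times under that scaling too. The poly-A controls themselves differed between duplicates, with mean log2 signals from 7.75 and 7.64 at 12 h to 8.39 and 7.40 at 48 h. The standard error of Rag2 in HAFTL against vehicle C10 was 0.42 under that scaling and 0.18 as reported. In any list, a call lost with poly-A scaling therefore does not show that the change was absent. Without the second 3 h array, whose 18S signal was high, 6 end-joining genes were lower at 3 h, an alternative chosen after the data were seen.

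Dntt belongs to the X family of DNA polymerases, with Poll, Polm and Polb, and Poll and Polm are the family members that fill gaps during end joining. Over the 4, Dntt included, 3, 4, 2 and 3 were lower at the successive times. Polm fell by 1.16 at 3 h and 1.26 at 12 h, was −0.31 at 24 h without passing the test, and was lower by 0.87 at 48 h (fitted change −0.87 ± 0.19). Poll fell by 1.00, 0.70, 0.69 and 0.88 at the 4 times. Polb, the base-excision polymerase, fell by 0.52 at 3 h and 1.07 at 12 h and was −0.01 and 0.20 afterwards. Its probe sets disagreed in direction at 24 h. With poly-A scaling Polb at 3 h turned to 0.18 and Poll at 12 h to 0.01, and calls of this family fell to 0, 1, 0 and 1. In HAFTL, where Dntt was so much higher, Poll, Polm and Polb differed from vehicle C10 by 0.15, −0.08 and 0.02 and none passed the test, so only Dntt was called of the 4.

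Cofactors of the recombinase and the machinery that destroys Rag2 moved in opposite directions early and late. Of 8 genes tested, 5 were higher and 1 lower at 3 h, 6 higher and 1 lower at 12 h, and 7 were lower at 24 h and at 48 h with none higher. Skp2, part of the ubiquitin ligase that removes Rag2 as cells enter S phase, rose by 1.97 ± 0.12 at 3 h and 1.14 at 12 h and then fell by 1.40 and 1.10. Ccna2, the cyclin of the kinase that marks Rag2 for removal, rose by 1.68 at 3 h and was at least 32.3-fold lower at 48 h. Hmgb2, a DNA-bending protein that helps the recombinase to bind, rose by 1.10 and 1.05 and fell by 1.05 and 2.39. Kpna2, a nuclear import factor that binds Rag1, rose by 1.36 and 0.77 and fell by 0.65 and 1.62. These genes also serve the cell cycle at large and are not specific to recombination. With poly-A scaling the rises were 5 and 6 again, and 1 and 2 were called lower at 24 h and 48 h. Hmgb1 was not analysed here.

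Genes that signal the break went both ways at first and were lower later. Of 8 tested, 3 were lower and 3 higher at 3 h, and 3 were lower and 2 higher at 12 h. Later 7 and then 8 were lower. H2ax, the histone that is phosphorylated at breaks, rose by 0.77 at 3 h and fell by 1.23 at 24 h and 2.25 at 48 h. Chek2, a checkpoint kinase, rose by 0.64 at 3 h and fell by 1.91 at 48 h. Trp53bp1, which shields ends from resection, fell by 1.14, 1.20, 1.81 and 2.07 at the 4 times, and with poly-A scaling the changes of −0.39 at 3 h and −0.44 at 12 h were not called. Pim2, a survival kinase that is induced by breaks in pre-B cells, fell by 1.84 at 3 h and fell by 2.05 over 48 h, and in HAFTL it was 1.76 ± 0.12 lower than in vehicle C10, which poly-A scaling did not keep as a call (adjusted p = 0.113). The alternative end-joining genes Mre11a, Rad50, Nbn and Xrcc1 were among 6 tested, of which 1 was lower and 2 were higher at 3 h, and 2, 4 and 6 were lower at the later times. Mre11a and Nbn rose by 0.70 and 1.15 at 3 h, and fell by 1.52 and 1.33 at 48 h. Without the second 3 h array both of those rises missed the threshold (adjusted p = 0.0501 and 0.0938). Poly-A scaling left 1, 1, 3 and 4 break-signalling genes lower and 3, 2, 0 and 0 higher at the 4 times. It left none of the alternative end-joining genes lower, and 2, 1, 0 and 0 higher.

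Of 27 transcription factors reported to act on Rag or Dntt, 18 were lower and 6 higher at both 3 h and 12 h, and 20 were lower and 5 higher at both later times, with a median of −0.91 at 3 h. With poly-A scaling 9, 8, 11 and 10 were lower and 6, 6, 5 and 5 higher. Foxo1, which activates Rag1 and Rag2 in B cell progenitors, gave a signal of 6902 in vehicle C10, 571 at 3 h and 559 at 48 h, a fall of 3.60 ± 0.12 at 3 h that changed little afterwards (−3.47, −3.63 and −3.63). In HAFTL it was at 6739, a difference of −0.03 that did not pass the test. Ebf1, a master factor of the B lineage, fell by 1.68 at 3 h and 2.54 at 12 h. Pax5, the B lineage commitment factor, was 2.69 ± 0.29 lower at 3 h, where 1 array lay under the filter level, and 1.28 lower at 48 h (fitted change −1.28), and its calls at 12, 24 and 48 h were lost with poly-A scaling. Tcf3, the E protein that binds E-boxes such as those printed for Rag1, had log2 changes of −0.91, −1.63, −2.02 and −2.48. Ikzf1, Ikaros, fell by 1.42, 1.30, 1.03 and 1.10.

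Among the same factors, Ikzf3, Spib, Bcl11a and Bach2 had the largest changes at 48 h. Ikzf3, Aiolos, fell by 2.20 at 3 h and was at least 19.7-fold lower at 24 h and 48 h. Spib, an Ets-family factor, fell by 3.47 at 3 h and 4.69 at 48 h. Bcl11a, needed for B cell development, fell by 3.44 and 4.59, and Bach2, a repressor that restrains plasma cell differentiation, had log2 changes of −2.45 and −4.50 at the same times. Between HAFTL and vehicle C10, 5 of the 27 factors were called lower in HAFTL and 3 higher. Ikzf3, Spib and Ikzf1 were lower in HAFTL, by 1.28, 0.95 and 0.40 (fitted changes −1.28, −0.95 and −0.40). Satb1 and Gfi1b were lower too (−1.07 and −0.66). Id2, Tcf12 and Ets1 were higher in HAFTL, as Dntt was, by 1.12, 0.44 and 0.41. The calls of Tcf12 and Ets1 were lost with the deposited values and with median centring. Id3 and Id2, inhibitors of E proteins, were chosen after their values were seen: Id3 was at least 11.6-fold lower at 3 h, while Id2 fell by 0.61 at 3 h and rose by 3.58 at 24 h. With poly-A scaling Ikzf1 was not called at any of the 4 times, Tcf3 not at 3 h or 12 h, Ebf1 and Id2 not at 3 h, and no factor was called between HAFTL and vehicle C10. Without the second 3 h array 17 were lower and 5 higher at 3 h.

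A list of antigen receptor genes had 6 tested: Ighm, Igll1, Vpreb1, Vpreb3, Cd79a and Cd79b. All 6 were lower at each of the 4 times, and with poly-A scaling 1, 2, 4 and 5 of them were. Whether the Ighm RNA came from a germline or a rearranged locus was not tested. Igll1 and Vpreb1, the surrogate light chain, fell by 1.11 and 1.05 at 3 h and by 3.54 and 3.06 at 48 h. Vpreb3 fell by 0.71 at 3 h and 4.23 at 48 h, and Ighm by 0.83 and 1.99, and with poly-A scaling both turned at 3 h (0.21 and 0.10). These genes have close relatives or repeated segments, and their probes may read more than 1 of them. Il7r, the receptor for interleukin-7, a cytokine whose withdrawal permits Rag expression in pre-B cells, fell by 2.85 ± 0.12 at 3 h and 5.97 at 24 h. Blnk, the adaptor of the pre-B receptor, fell by 2.41 and by 2.57 at those times. Syk, its kinase, fell by 1.52 at 3 h, a call lost with poly-A scaling, and its probe sets disagreed in direction from 12 h on. Pik3r1, a regulatory subunit of PI3-kinase, rose by 0.94 at 3 h and 1.78 at 48 h. As a group, the 12 interleukin-7 and pre-B signalling genes were mixed: 5, 7, 4 and 6 were lower and 2, 2, 3 and 2 higher at the successive times. The numbers at 24 h lie near the 26.4% lower and 23.7% higher of all probe sets tested. The median of the group was −0.45, −0.58, −0.03 and −0.25, and it turned above 0 under poly-A scaling at all 4 times, from 0.21 to 0.48.

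**Figure D4:**
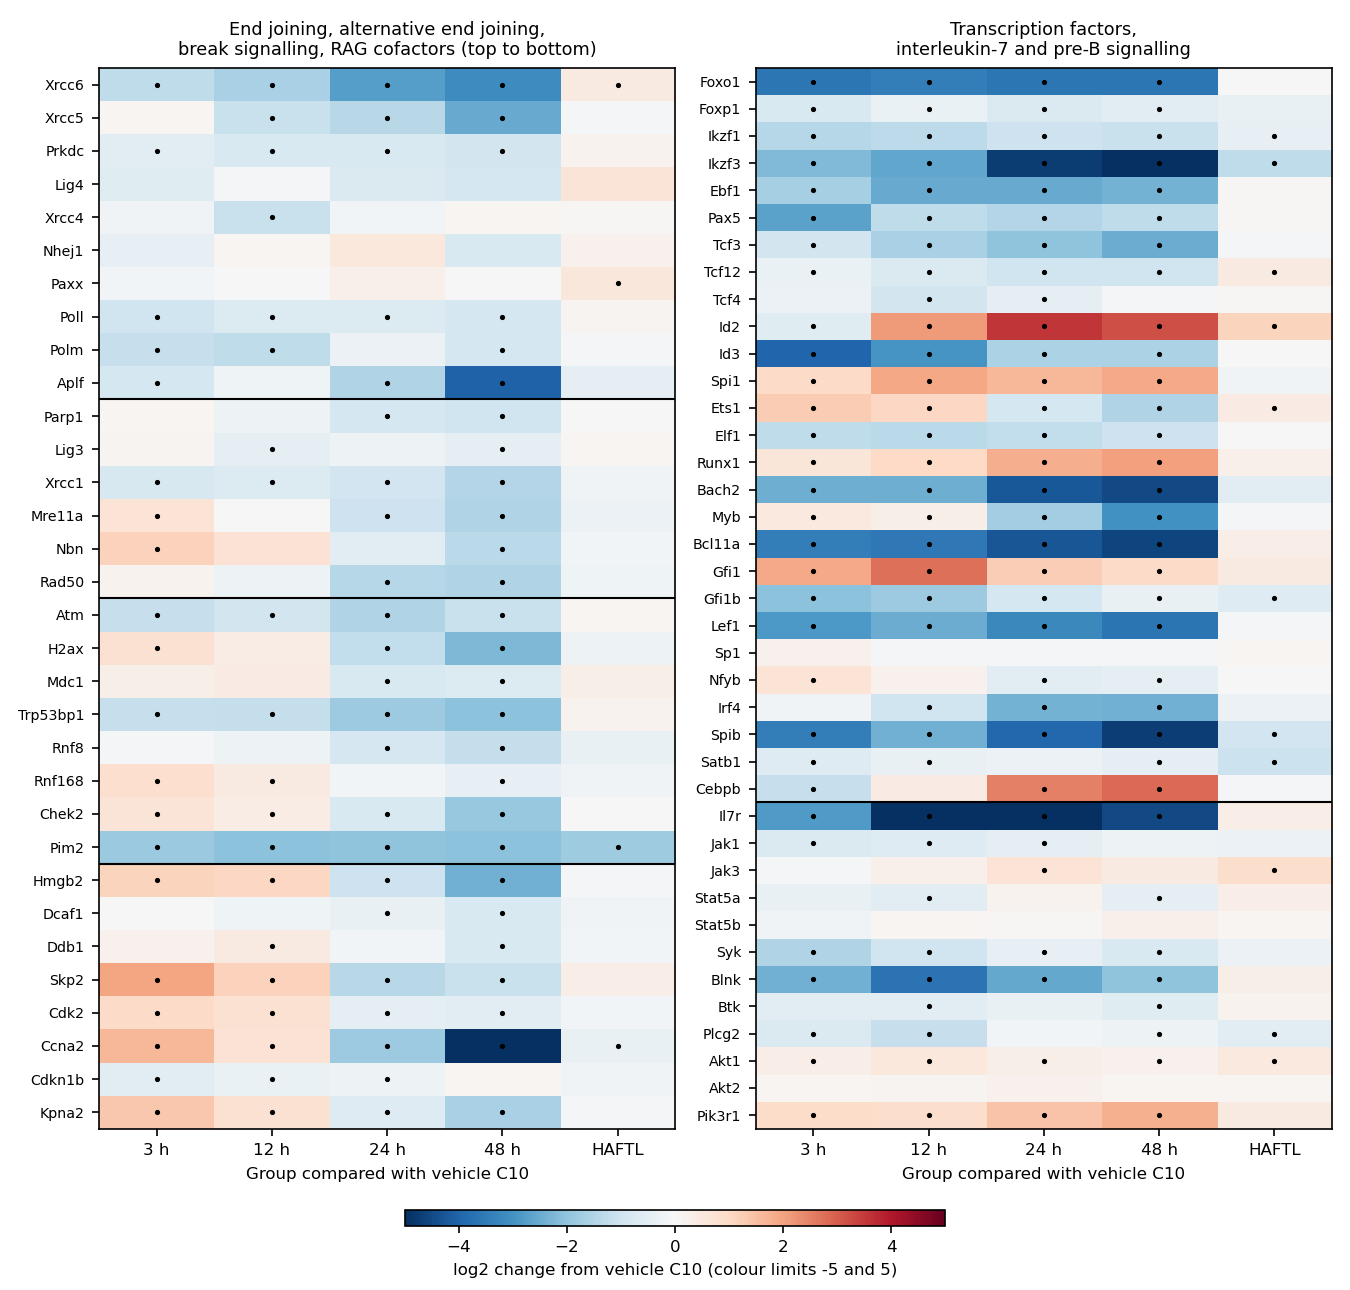
Log2 change from vehicle C10 (colour, limits −5 and 5) of the tested genes in 6 lists, 1 probe set a gene, in C10 after 3, 12, 24 and 48 h of estradiol and in HAFTL; dots mark calls at an adjusted p below 0.05. Foxo1 is 3.60 lower at 3 h and 3.63 lower at 48 h, while Ccna2, Skp2, Hmgb2 and Kpna2 are higher at 3 h and 12 h and lower later.

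The neighbours of the Rag genes are given as a description. Of the 4 nearest protein-coding genes on each side in the RefSeq order, 7 of 8 were tested. Among these 7, 2, 3, 3 and 2 were lower at the successive times and 1, 1, 2 and 2 were higher. Of all probe sets tested, 20.3% to 30.0% were lower and 20.6% to 25.5% higher. With only 7 genes such shares are coarse, and no result about the neighbours is drawn from them. Iftap, whose gene span overlaps that of Rag2 in RefSeq, fell by 1.74 ± 0.32 at 3 h and was at least 3.72-fold lower from 12 h on. It was higher in HAFTL by 1.48. Whether its probes also read transcripts of Rag2 was not tested. Traf6, the nearest gene beyond Rag1 and an adaptor of innate immune signalling, fell by 0.57, 1.17 and 0.70 at the first 3 times and was −0.43 at 48 h without passing the test. Prr5l, a partner of mTOR complexes, was under the filter level in vehicle C10 and up to 12 h and was at least 3.00-fold higher at 24 h and at least 7.53-fold higher at 48 h. Commd9 rose by 0.57 at 3 h and 1.17 at 24 h. Ldlrad3 did not pass the test at any time, and Api5 fell by 0.39 and 0.43 at 24 h and 48 h. Ttc17 was lower at 12 h alone (−1.05), and Lrrc4c was not tested.

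Around Dntt, limma called none of the 6 tested neighbours between HAFTL and vehicle C10, where 4.42% of all probe sets were called higher and 4.98% lower. The nearest, Blnk, was 0.31 ± 0.14 higher in HAFTL and did not pass the test (adjusted p = 0.238). In the time course 2, 3, 2 and 3 of the 6 were lower and 0, 1, 1 and 0 higher. Blnk fell by 3.70 at 12 h, and Zfp518a by 1.02 at 12 h and 1.44 at 48 h. Pik3ap1, an adaptor of PI3-kinase in B cells, fell by 0.42 at 3 h, and Tm9sf3 rose by 0.53 at 12 h. Ccnj did not pass the test at any time. Opalin was near or under the filter level and not called, and Cc2d2b and Tll2 were not tested.

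**Figure D5:**
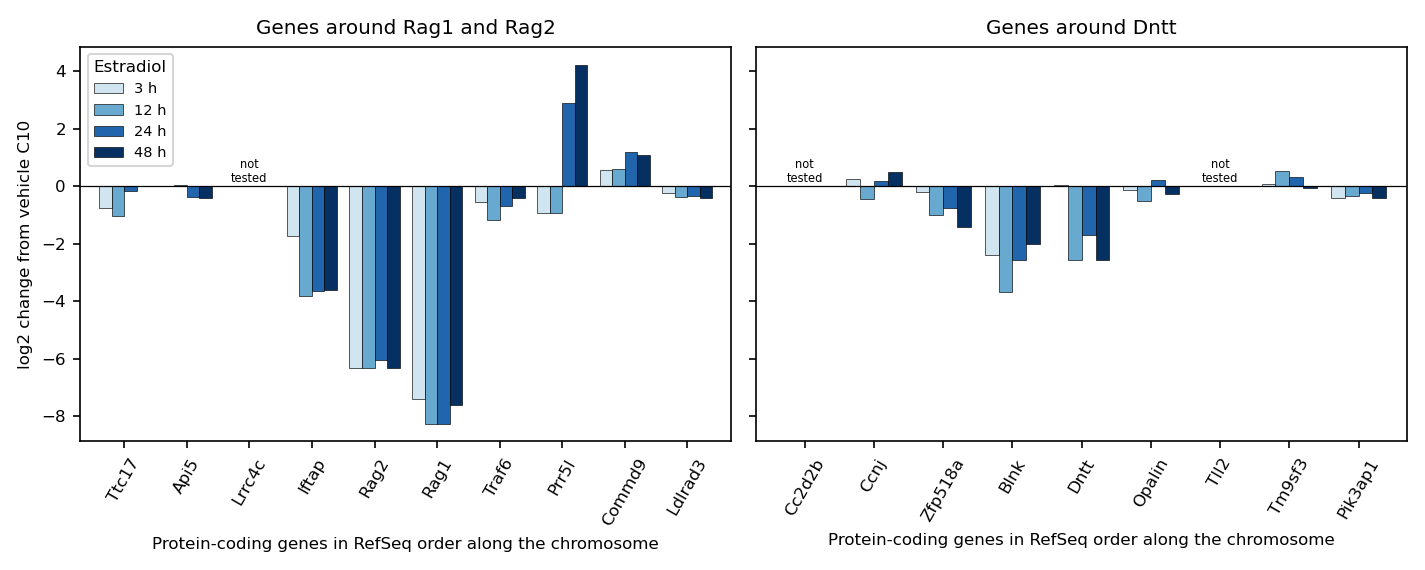
Log2 change from vehicle C10 after 3, 12, 24 and 48 h of estradiol for Rag1, Rag2, Dntt (1450545_a_at) and the 4 nearest protein-coding genes on each side in RefSeq order; bars that start or end at dim signals, such as those of Rag1, Rag2, Dntt, Iftap and Prr5l, have no exact size. Commd9 is 0.57 and 1.17 higher at 3 h and 24 h, and Blnk is 3.70 lower at 12 h beside Dntt.

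The pattern of each member over the 12 arrays was compared with that of 11696 genes, 1 probe set each, as a description: 4 bright and 8 dim arrays make up most of each correlation for the Rag genes, and 2 bright arrays for Dntt. The Pearson correlation of log2 signals between Rag1 and Rag2 was 0.990, and each was between 0.749 and 0.790 with the Dntt probe sets, which correlated among themselves at 0.948 to 0.983. The genes most like Rag1 were BC034090 (0.993), Mtor (0.992), Rag2 (0.990), Slc1a5 (0.990), Foxo1 (0.990), Mtln (0.989), Hscb (0.986) and 2410006H16Rik (0.985). Rag2 shared BC034090 (0.998), 2410006H16Rik (0.998), Foxo1 (0.992) and Mtor (0.992) with it, and had Slc17a9, Gimap1 and Mrpl24 besides Rag1. BC034090 gave signals of 186 in HAFTL and 150 in vehicle C10 and lay at or near the floor in every estradiol-treated group. Mtor, the growth-control kinase, gave 11591 in HAFTL, 8542 in vehicle C10 and 1973 at 3 h. The genes most like Dntt were Smim15 (0.984), Laptm4b (0.976), Egfl7 (0.958), Mmrn1 (0.950), Tceal8 (0.950), Micos13 (0.946), Hilpda (0.941) and Prdx2 (0.941). Laptm4b gave 690 in HAFTL, 238 in vehicle C10 and 167 at 12 h, and Tceal8 gave 349 in HAFTL and 30.3 in vehicle C10, under the filter level.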

How the data were processed

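The authors deposited 1 table of linear signal intensities per probe set for 12 one-colour mouse arrays hybridised with biotin-labelled RNA; the range of the deposited intensity values shows their scale, and how probes were summarised into these values is not given in the sources used here. Their trimmed mean was 500.0 in every array, which shows that scaling between arrays preceded deposition. Sample titles gave the groups and the replicate numbers. Log2 values of all 45101 probe sets were quantile-normalised, 64 controls left out, and values floored at 16. Probe sets were named from the platform annotation, checked against RefSeq genes of GRCm38.p6 (34741 of 34945 matched). Array medians ranged from 68.5 to 85.0, and 21.2% to 24.6% of probe sets lay under the floor. Duplicates correlated at 0.970 to 0.975.

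Tests used limma (3.58.1) in R (4.3.3): 1 mean per group over 12 arrays, empirical Bayes moderation, two-sided, Benjamini-Hochberg over 26524 probe sets, with 6 residual and 1.61 prior degrees of freedom. The script was tested on simulated data. The brightest probe set stood for each list gene. Named genes were all members, for each list up to 4 genes that differed most from vehicle at 48 h, a fixed set, the 4 nearest genes on each side, and the 8 most alike. The members and lists were chosen with earlier results of these data known. Replicate numbers did not pair samples: of 15 pairs of groups none had a correlation of deviations over 0.1 (−0.034 to 0.027). Alternatives covered normalisation, filter, floor, pseudocount, probe set choice, prior, groups fitted, the replicate block, HAFTL as control, and each array left out; list counts under other scalings and without the second 3 h array were added after the data were seen. Some other genes of these lists were not analysed here. Figures used Python (3.11.15) with matplotlib (3.10.9) and pandas (2.3.3).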

Additional observations from a re-analysis of the deposited data

How the results depend on the processing

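Rag1 and Rag2 stayed called lower than vehicle C10 at all 4 times in every alternative run, leaving out each array included, and Dntt 1450545_a_at stayed called higher in HAFTL in every alternative run. At 3 h the Dntt values had no stable sign. 1449757_x_at, 0.12 as reported, was −0.013 with the deposited values, −0.069 with a floor of 64, and −0.46 to 0.70 with 1 array left out. Against HAFTL, another comparison, it was −5.33. 1450545_a_at, 0.04 as reported, was −0.092 with the deposited values, −0.061 as the mean of probe sets, and −0.057 to 0.15 with 1 array left out. Against HAFTL it was −5.74. With a floor of 64, 1449757_x_at was −0.39 at 12, 24 and 48 h and no longer called (adjusted p = 0.212, 0.201 and 0.191), since that floor lies just under its vehicle signal. At 24 h, 1450545_a_at was no longer called with poly-A scaling (−1.23), with only the 2 groups compared (−1.70) or with a floor of 1 (−2.90), and ran from −2.57 to −0.82 with 1 array left out. For HAFTL against vehicle C10 the Rag2 call was lost with the deposited values (0.72), median centring (0.59), poly-A scaling (0.80), a pseudocount of 16 (0.75), and at 0.76 with no filter, only the 2 groups, an intensity trend or a floor of 1, and it ran from 0.62 to 0.89 with 1 array left out. Rag1 passed with a floor of 64 (0.29, adjusted p = 0.0364), and 1449757_x_at missed with only the 2 groups (5.45, adjusted p = 0.0672). Over all 5 member probe sets, 2, 4, 5 and 4 were lower at the 4 times and 4 higher in HAFTL. Without 1420166_at, tested only because HAFTL is high, 24 h had 4 and HAFTL 3. Over all 5, lower calls became 3 at 24 h with poly-A scaling or a floor of 1 or 64, and 1 from 3 h to 12 h with a floor of 64. The HAFTL count became 2 with only the 2 groups. Against HAFTL, Rag1, Rag2, 1449757_x_at and 1450545_a_at were called lower at 3 h. 1420166_at was too, which its passing the filter through HAFTL alone had fixed in advance. The share of all probe sets called lower in that comparison is not given here. With 1 array left out the 24 h count ran from 3 to 5 (3 without either vehicle array) and the count from 24 h to 48 h from 0 to 2 (2 without the second 24 h array). The replicate number as a block changed no call at 3, 12 or 48 h: Rag1 at 3 h stayed at −7.42 ± 0.32 and Rag2 at −6.33 ± 0.16, and the count at 24 h was 4. No replicate pairing was found, so the block is given as a value only.

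Counts over all probe sets moved by more than 1.5 times mainly with poly-A scaling, with 1 value a gene, where fewer features were tested, and with fewer arrays. Lower calls at 3, 12, 24 and 48 h were 5375, 5768, 7002 and 7969 as reported and 724, 752, 1443 and 1860 with poly-A scaling, 3196, 3358, 3892 and 4469 with 1 probe set a gene and 2492, 2617, 3191 and 3784 with all probe sets of a gene averaged. Higher calls were 5468, 5856, 6284 and 6775 as reported, 3627 at 24 h with poly-A scaling, and 2450, 2609, 2825 and 2831 or 2288, 2445, 2608 and 2700 by gene. For HAFTL the 1321 lower and 1172 higher calls became 87 and 111 with poly-A scaling, 72 and 43 with only the 2 groups and 609 and 584 by gene mean, with 621 higher under median centring, 1902 with an intensity trend, and 470 to 688 lower and 334 to 441 higher without 1 array of either group. From 3 h to 12 h the 2962 lower and 3217 higher became 196 and 374 with poly-A scaling, 1937 and 1944 or 1562 and 1578 by gene and 975 and 1298 with only the 2 groups, with 1633 to 1827 lower without any 1 of the 3 h or 12 h arrays and 1850 and 1987 higher without the first or second 12 h array. From 12 h to 24 h the 4801 and 4369 became 2286 and 824 with poly-A scaling and 2702 and 2611 or 2311 and 2221 by gene. From 24 h to 48 h the 2943 and 1925 became 161 and 241, 210 and 209 with only the 2 groups, and 1517 and 869 by gene mean, with 1362 and 1658 lower without the first or second 24 h array and 830 to 1052 higher without any 1 of the arrays compared. Of 746 alternative values for main results, 698 kept direction and call, or as counts stayed within 1.5 times. For other results 403 did so, 70 moved and 1 weakened. Dntt in C10 lies so near the dim level that signal over background limits any fold there.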
